A study of Homo sapiens with 12 samples.

Results

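The 29 genes described here cover fatty acid oxidation and mitochondrial uncoupling, chosen by symbol from the 56832 symbols in the count tables, and all 29 passed the filter on low counts. They comprise 4 acyl-CoA synthetases, 3 genes of the carnitine shuttle, 4 acyl-CoA dehydrogenases, 5 genes of the later mitochondrial steps and 3 auxiliary enzymes for unsaturated chains. They also comprise 3 genes of electron transfer, 4 peroxisomal enzymes, 2 coactivators and 1 uncoupling protein. RNA sequencing was run on 12 libraries of SW1736, an established line from a human anaplastic thyroid carcinoma, in 4 groups of 3. The cells had stably received the empty vector pCDH (EV) or pCDH carrying thyroid hormone receptor beta (TRB). All of them were held for 24 h in medium depleted of hormone, then given 10 nM triiodothyronine (T3) or NaOH alone as vehicle for another 24 h. The groups are called EV vehicle, EV T3, TRB vehicle and TRB T3. The receptor is driven by a vector in both TRB groups, and the labels do not say whether the stable lines were clones or whether libraries came from separate cultures, so p-values measure only the spread between these libraries.

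Long-chain fatty acids are activated to acyl-CoA by the ACSL synthetases, carried into mitochondria by CPT1, a translocase and CPT2, and shortened there in a repeated spiral of dehydrogenation, hydration, a further dehydrogenation and thiolysis. Electrons leave through the electron transfer flavoproteins, very long and branched chains begin in peroxisomes, and PGC-1 coactivators raise the expression of the pathway's genes in oxidative tissues. T3 acts through nuclear receptors, and in liver it is known to raise CPT1A and fatty acid oxidation.

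Counts within genes ran from 3819306 (EV T3 replicate 3) to 13086717 (TRB T3 replicate 1) per library. The share of alignments without a unique place was 77.7%, 69.6% and 92.0% in EV T3, and at most 66.9% in any other library. EV T3 enters the T3 comparison in EV cells, the comparison of vectors under T3 and the interaction. The part that this difference plays there was not tested. Levels are CPM, library-scaled counts after TMM normalization, and levels of different genes are compared only as CPM per kilobase of exon. THRB, the supplied gene, averaged 14.6 ± 1.39 CPM (SD, n = 3) in EV vehicle and 14.9 ± 3.04 in EV T3. In TRB vehicle it averaged 80.1 ± 0.314 and in TRB T3 269.6 ± 69.8. Counts do not tell vector transcripts from the cell's own. TRB T3 and TRB vehicle thus differed in THRB RNA as well as in hormone, and the T3 comparison in TRB cells and the interaction cannot tell these apart. KLF9, a gene known to respond to T3, rose with T3 in EV cells (log2 fold change 3.41, edgeR adjusted p 0.00272) and in TRB cells (4.05, adjusted p 5.25e-05). Of the thyroid follicular markers reported here, TSHR and FOXE1 had 0 counts in every library, SLC5A5 at most 1, TG at most 5, NKX2-1 at most 17 and PAX8 at most 81. The epithelial markers were present, with EPCAM at 317 to 1100 CPM and KRT8 at 386 to 2208. Leukocyte PTPRC, endothelial PECAM1 and CDH5, fibroblast DCN and LUM, and muscle CKM, MYH7 and ACTN2 had at most 2 counts in any library, and COL1A1 had 8 to 313. UCP1 and CIDEA, which mark brown adipocytes, had 0 counts throughout, as did ADIPOQ and FABP4. PLIN1 had at most 11 counts, and the hepatocyte genes ALB and APOA1 at most 1.

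TRB T3 replicate 2 stood apart from all other libraries, so results come from a fit of all 12 libraries and from a fit of the other 11. Its TMM factor was 0.786 against 0.995 to 1.05 elsewhere. Among the 29 genes, its departure from replicates 1 and 3 of its group followed the GC content of the gene's transcripts, with a Spearman correlation of -0.915 over genes that share these libraries. All 11 genes with over 50% GC were lower in it, and 15 of 18 with 50% or less were higher. Over all 12157 genes with a known GC content the same correlation was -0.899, so the trend was not particular to the 29. ECI1, at 64.1% GC, departed by -4.85 on the log2 scale, and ACSL4, at 39.0% GC, by 1.72. EV T3 also held libraries with a GC trend: over the 29 genes the Spearman correlation of a library's deviation with GC was 0.811 in replicate 1, -0.157 in replicate 2 and 0.899 in replicate 3. In the 3 TRB libraries with vehicle it was 0.757, 0.661 and 0.747, and in those of EV vehicle 0.0281, -0.490 and 0.366. In TRB T3 it was 0.0182, -0.869 and 0.194. Over all genes with a known GC content the values in EV T3 were 0.717, -0.257 and 0.828. In TRB vehicle they were 0.584, 0.421 and 0.435, in EV vehicle 0.183, -0.493 and 0.0251, and in TRB T3 0.312, -0.851 and 0.432. A further pair of fits therefore took out each library's GC trend, on 12 and on 11 libraries. The part that GC content plays in single genes was not tested otherwise.

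**Figure D1:**
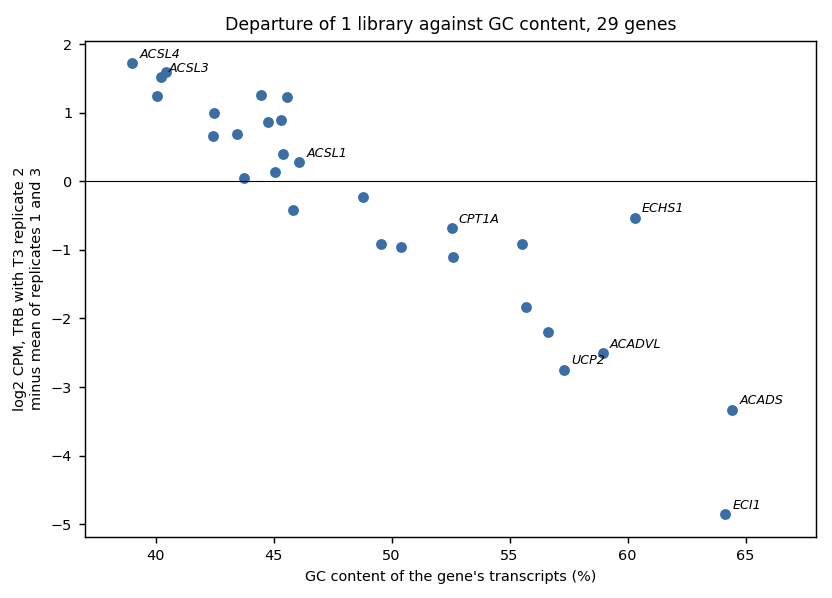
Log2 CPM of TRB T3 replicate 2 minus the mean of replicates 1 and 3 (vertical axis) against the GC content of each gene's transcripts in percent (horizontal axis), with 1 point for each of the 29 genes. Points fall from 1.72 for ACSL4 at 39.0% GC to -4.85 for ECI1 at 64.1% GC.

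In EV cells with vehicle, the highest levels per length belonged to ACSL5 (80.5 CPM per kb), ECHS1 (68.4), ACADVL (42.8), ACAA2 (39.0) and HADHA (35.0). At the other end stood PPARGC1B (1.65), ECI2 (0.664) and PPARGC1A (0.290). SLC25A20, the carnitine-acylcarnitine translocase, was at 2.09, below CPT1A (15.5) and CPT2 (3.76) of the same shuttle. Summed over the 29 genes, expression was 2177 to 2320 CPM in EV vehicle, 2217 to 2320 in EV T3 and 2262 to 2306 in TRB vehicle. In TRB T3 the sum was 2203 and 2211 in replicates 3 and 1 and 2806 in replicate 2. Without that library, the group's sums lay inside the range of EV vehicle and below every library of TRB vehicle and of EV T3.

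In both fits T3 in TRB cells raised 4 long-chain acyl-CoA synthetases and lowered CPT1A, HADH and PPARGC1B, of which the rise of ACSL5 did not pass with GC offsets on 12 libraries. With 12 libraries 7 of the 29 genes passed in edgeR, 24.1% of them, against 14.7% of all 14431 genes tested. The 4 that rose compare with 8.54% of all genes called higher, and the 3 that fell with 6.2% called lower. With 11 libraries 13 genes passed, 6 higher and 7 lower, against 33.3% of all genes (18.1% higher, 15.2% lower), and all 7 were among them. Leaving out TRB vehicle replicate 1, 2 or 3 gave 3, 3 or 2 genes, and 1 (ACSL1) passed in a fit of the compared groups alone. Over the 11 fits that left out a library other than TRB T3 replicate 2, ACSL5 and HADH passed in 9, ACSL3 and PPARGC1B in 8 and ACSL4 in 6. The 11-library count was 9 and 8 when TRB T3 replicate 1 or 3 was left out as well. The T3 libraries lay above all vehicle libraries for 6 of the 29 genes (17.3% of all genes) and below them for 10 (23.5%), and without TRB T3 replicate 2 for 8 (30.4%) and 14 (36.4%). The median log2 fold change of the 29 genes was -0.22 against 0.01 for all genes, and -0.10 against -0.01 with 11 libraries.

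**Figure D2:**
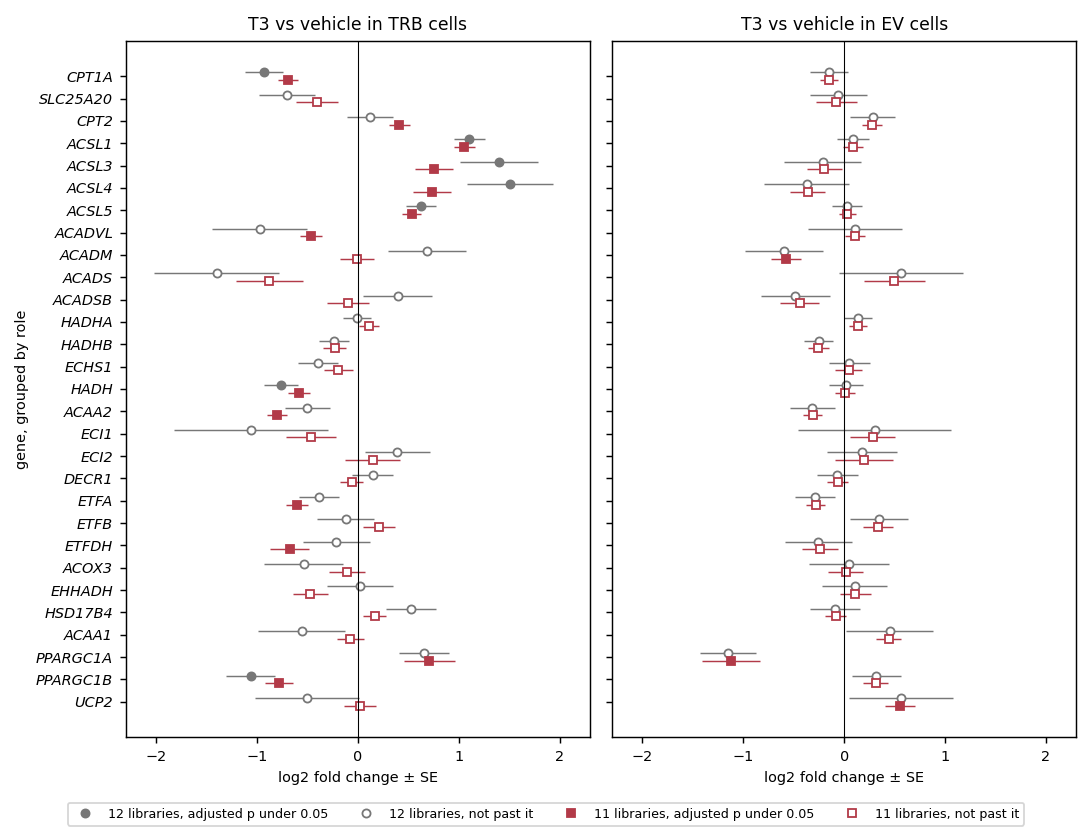
Log2 fold change of T3 against vehicle (horizontal axis) with its standard error for the 29 genes, in TRB cells (left) and EV cells (right), from the fits of 12 and 11 libraries; filled symbols have an adjusted p under 0.05. In TRB cells the 4 ACSL genes are filled to the right of 0 in both fits, while CPT1A, HADH and PPARGC1B are filled to the left.

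The synthetases ACSL1, ACSL3, ACSL4 and ACSL5 attach coenzyme A to long-chain fatty acids; ACSL4 is known for its preference for arachidonate, and ACSL3 for its place on lipid droplets. The 250 bases before the first listed start of each gene are shown because these 4 genes moved together. They lie at chr4:184825969-184826218 (minus strand) for ACSL1, chr2:222860786-222861035 (plus) for ACSL3, chrX:109733258-109733507 (minus) for ACSL4 and chr10:112375018-112375267 (plus) for ACSL5, from RefSeq on GRCh38.p14, written 5′ to 3′ on the gene's strand. For ACSL5 the window that holds the motif is given. Capitals mark AGGTCA, the half-site read by many nuclear receptors, on either strand.
ACSL1: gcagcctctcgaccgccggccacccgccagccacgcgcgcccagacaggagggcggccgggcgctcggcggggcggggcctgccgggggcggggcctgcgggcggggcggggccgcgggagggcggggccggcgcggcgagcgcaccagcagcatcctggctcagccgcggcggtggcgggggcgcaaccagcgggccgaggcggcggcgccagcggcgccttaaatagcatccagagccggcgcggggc
ACSL3: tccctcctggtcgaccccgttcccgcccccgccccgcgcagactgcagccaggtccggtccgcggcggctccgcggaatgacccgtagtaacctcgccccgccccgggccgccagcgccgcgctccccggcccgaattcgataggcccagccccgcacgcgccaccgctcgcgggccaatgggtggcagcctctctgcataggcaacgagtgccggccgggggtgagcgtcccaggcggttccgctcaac
ACSL4: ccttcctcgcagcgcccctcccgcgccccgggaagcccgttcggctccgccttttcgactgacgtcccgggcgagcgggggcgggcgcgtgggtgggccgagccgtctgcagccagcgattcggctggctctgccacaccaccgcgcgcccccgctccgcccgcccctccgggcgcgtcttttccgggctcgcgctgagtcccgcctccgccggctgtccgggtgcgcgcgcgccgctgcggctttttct
ACSL5: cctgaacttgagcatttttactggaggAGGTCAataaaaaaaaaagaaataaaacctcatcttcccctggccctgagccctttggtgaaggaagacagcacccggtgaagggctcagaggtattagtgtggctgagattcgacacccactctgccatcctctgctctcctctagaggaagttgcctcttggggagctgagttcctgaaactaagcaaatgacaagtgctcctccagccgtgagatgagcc
Of the 29 genes, 25 had a RefSeq window of 250 bases before to 50 after a start. These genes had 37 such windows. AGGTCA on either strand was found in 1 of the 37, of ACSL5, starting 223 bases before the start site, and in 13.8% of all 35116 windows of this length. A direct repeat of AGGTCA with any 4 bases between its copies (DR4), on either strand, was found in 0 of the 37 and in 0.0199% of all windows. GGGCGG was in 26 of the 37 and in 45% of all windows, and CCAAT in 7 of the 37 and 34.6%. The ACSL1 window shown had 83.6% GC and that of ACSL5 50%. A match in these letters is a description of the window and no evidence of binding.

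ACSL1 stood at 37.4, 41.4 and 41.1 CPM in EV vehicle (replicates 1, 2 and 3, in this order throughout) and at 45.7, 38.7 and 43.0 in EV T3. In TRB cells it stood at 41.1, 38.5 and 42.4 with vehicle and at 82.3, 99.1 and 80.6 with T3. The 3 TRB T3 libraries lay above the other 9, which overlapped. For T3 in TRB cells its log2 fold change was 1.10 (SE 0.155, edgeR adjusted p 0.000834), and 1.05 with 11 libraries (SE 0.104, adjusted p 6.89e-06). It passed in all 11 fits that left out 1 other library, with TRB T3 replicate 2 and without it. Bulk counts cannot tell more RNA per cell from a larger share of cells that express a gene.

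ACSL5, the synthetase with the highest level per length, was at 329, 352 and 342 CPM in EV vehicle, 329.8, 373 and 341 in EV T3 and 331, 334 and 324 in TRB vehicle. With T3 the TRB libraries reached 469.8, 604 and 452, above all 9 others. The log2 fold change in TRB cells was 0.63 (SE 0.148, edgeR adjusted p 0.0164) and 0.53 with 11 libraries (SE 0.0936, adjusted p 0.000796). It shrank to 0.30 under GC offsets on 12 libraries, where the call was lost (adjusted p 0.157).

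ACSL3 was at 80.3, 93.7 and 94.3 CPM in TRB vehicle and at 144, 417 and 147 in TRB T3. ACSL4 was at 45.6, 63.1 and 58.8 with vehicle and 90.7, 297 and 89.4 with T3. For both genes the T3 libraries lay above the vehicle libraries of TRB cells, and replicate 2, whose departure followed GC content, was far above the other pair. Both have low GC (40.2% and 39.0%). The log2 fold change of ACSL3 was 1.40 (SE 0.385, edgeR adjusted p 0.0337), and 0.75 with 11 libraries (SE 0.190, adjusted p 0.00844). That of ACSL4 was 1.51 (SE 0.427, adjusted p 0.0378), and 0.74 with 11 (SE 0.187, adjusted p 0.00887). With GC offsets on 11 libraries the rises were 0.76 for each, and on 12 libraries 0.63 and 0.66 (adjusted p 0.00115 and 0.00134). In EV vehicle ACSL3 stood at 129, 134 and 122 CPM and ACSL4 at 66.2, 91.0 and 80.5, and in EV T3 at 108, 145 and 79.7 and at 60.3, 74.6 and 48.6. Without T3, TRB cells thus held less of both than EV cells in every library, a difference that did not pass (edgeR adjusted p 0.359 for each with 11 libraries). The log2 differences with 11 libraries were -0.51 for ACSL3 and -0.49 for ACSL4. They shrank to -0.25 and -0.21 with GC offsets on 11 libraries (edgeR adjusted p 0.0718 and 0.186).

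The summed level of the 4 synthetases was 498 to 529 CPM in TRB vehicle, 562 to 619 in EV vehicle and 513 to 632 in EV T3. In TRB T3 it was 787 and 769 in replicates 1 and 3 and 1418 in replicate 2.

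**Figure D3:**
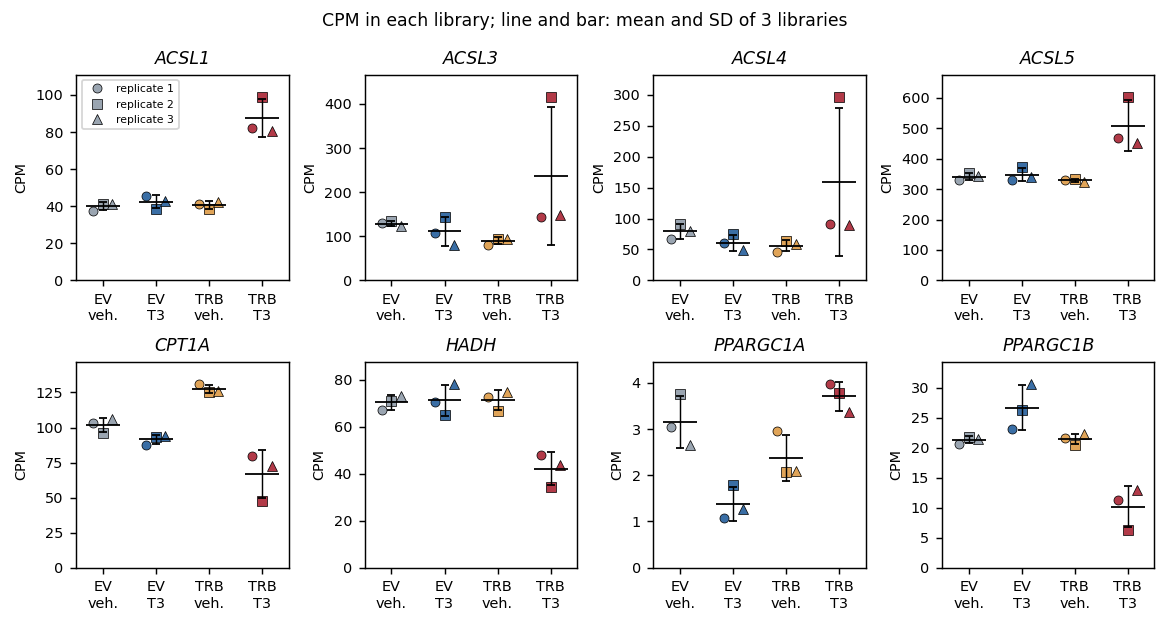
CPM (vertical axis, from 0) of 8 genes in each of the 12 libraries by group, with symbols for replicate numbers and the mean and SD of 3 libraries. For ACSL1, TRB T3 lies at 80.6 to 99.1 CPM against 37.4 to 45.7 in the other groups; for HADH it lies at 34.4 to 48 against 64.9 to 78.2.

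In the carnitine shuttle T3 lowered CPT1A in TRB cells, the enzyme at the outer mitochondrial membrane that sets the rate of entry. CPT1A was at 131, 125 and 126 CPM in TRB vehicle and 79.7, 47.3 and 72.8 with T3. It was at 103, 96.4 and 106 in EV vehicle and 87.7, 93.4 and 93.6 with T3. TRB vehicle held the 3 highest libraries of the 12, and TRB T3 the 3 lowest. The log2 fold change in TRB cells was -0.93 (SE 0.189, edgeR adjusted p 0.00736), and -0.69 with 11 libraries (SE 0.10, adjusted p 0.000178). It passed in all 11 fits that left out 1 other library, with and without TRB T3 replicate 2. CPT2, which returns the acyl group to coenzyme A at the inner membrane, stood at 38.3, 40.7 and 39.9 CPM in TRB vehicle and 49.4, 27.0 and 52.3 with T3. Replicate 2 alone lay below the vehicle libraries. CPT2 rose by 0.41 with 11 libraries (SE 0.104, edgeR adjusted p 0.00927), while the value with 12 was 0.12 (adjusted p 0.74). In EV cells CPT2 was at 39.1, 37.8 and 41.1 CPM with vehicle and 48.2, 44.1 and 51.1 with T3, without overlap (log2 fold change 0.28 with 11 libraries, adjusted p 0.0939). SLC25A20 was low, at 4.28 to 5.49 CPM in TRB vehicle and 3.60, 1.62 and 3.12 with T3, and passed in neither fit.

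Of the acyl-CoA dehydrogenases, which take the first step by chain length, none of the 4 passed for T3 in TRB cells with 12 libraries, and ACADVL fell with 11. ACADVL, for very long chains, was at 246, 247 and 247 CPM in TRB vehicle and 172, 30.2 and 174 with T3. All 3 T3 libraries were lower, and replicate 2, at 58.9% GC for this gene, was lowest by far. The log2 fold change was -0.97 with 12 libraries (edgeR adjusted p 0.19) and -0.46 with 11 (SE 0.108, adjusted p 0.00517). ACADM, for medium chains, was at 34.6, 43.2 and 39.3 CPM with vehicle and 37.9, 114 and 37.2 with T3, and its log2 fold change went from 0.68 with 12 libraries to -0.01 with 11 (adjusted p 0.251 and 0.98). ACADS, for short chains, was at 13.5 to 14.8 CPM with vehicle and 6.53, 0.540 and 8.49 with T3. It passed with GC offsets on 11 libraries (-0.89, adjusted p 0.000612), though in neither fit without them. ACADSB, of short branched chains, passed in none of the 3.

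Among the later mitochondrial steps HADH fell in both fits and ACAA2 with 11 libraries. HADH, the dehydrogenase of short and medium hydroxyacyl chains, was at 72.6, 66.7 and 74.8 CPM in TRB vehicle and 48, 34.4 and 43.8 with T3. In EV cells it was at 66.9, 71.0 and 73.2 with vehicle and 70.5, 64.9 and 78.2 with T3. The 3 TRB T3 libraries lay below the other 9. The log2 fold change was -0.76 (SE 0.167, edgeR adjusted p 0.0113) and -0.59 with 11 libraries (SE 0.110, adjusted p 0.00129). ACAA2, the mitochondrial thiolase, was at 204, 206 and 192 CPM with vehicle and 112, 202 and 111 with T3 in TRB cells. Replicate 2 overlapped the vehicle libraries, and the fall was -0.50 with 12 libraries (adjusted p 0.156) and -0.80 with 11 (SE 0.102, adjusted p 6.14e-05).

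HADHA and HADHB encode the subunits of the trifunctional protein, and their RefSeq start sites on chromosome 2 lie head to head, 307 bases apart. HADHA was at 166, 153 and 143 CPM in TRB vehicle and 161, 137 and 159.8 with T3, and HADHB at 86.5, 83.6 and 79.1 and at 71.6, 74.8 and 65.1. HADHA overlapped between the groups, HADHB did not, and neither passed with 12 or 11 libraries. With GC offsets on 11, HADHB passed, lower (-0.24, edgeR adjusted p 0.0376), and HADHA did not (0.08, adjusted p 0.293). ECHS1, the short-chain enoyl-CoA hydratase, also passed only there, at -0.27 (adjusted p 0.00451).

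The electron transfer genes ETFA and ETFDH fell with 11 libraries, and ETFB did not pass. ETFA was at 116, 118 and 123 CPM in TRB vehicle and 72.9, 122 and 79.2 with T3. Its log2 fold change was -0.38 with 12 libraries (edgeR adjusted p 0.214) and -0.60 with 11 (SE 0.110, adjusted p 0.00104). ETFDH, which passes the electrons to ubiquinone, was at 9.86, 9.74 and 10.7 CPM with vehicle and 6.68, 14.4 and 5.37 with T3. Replicates 1 and 3 were lower than every vehicle library and replicate 2 higher, and the change was -0.22 (adjusted p 0.671) and -0.68 with 11 libraries (SE 0.193, adjusted p 0.0166). ETFB was at 77.5 to 89.0 CPM with vehicle and 93.3, 43.4 and 93.3 with T3.

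None of the 3 auxiliary enzymes for unsaturated chains (ECI1, ECI2, DECR1) and none of the 4 peroxisomal enzymes (ACOX3, EHHADH, HSD17B4, ACAA1) passed for T3 in TRB cells with 12 or 11 libraries. ECI1, an enoyl-CoA isomerase, showed the widest departure, at 26.9, 0.899 and 38.3 CPM with T3. EHHADH, the peroxisomal L-bifunctional enzyme, was at 26.6, 25.3 and 29.8 CPM in TRB vehicle and 20.5, 45.5 and 17.4 with T3 (log2 fold change -0.47 with 11 libraries, edgeR adjusted p 0.0501). HSD17B4, the D-bifunctional enzyme, was at 121 to 133 CPM with vehicle and 141, 276 and 137 with T3, and ACAA1, the peroxisomal thiolase, at 84.7 to 96.1 and at 82.2, 18.2 and 85.3. With GC offsets on 11 libraries 18 of the 29 genes passed, against 55.7% of all genes: 6 higher (27.7% of all) and 12 lower (28.1% of all), with ECI1 (-0.50) and EHHADH (-0.48) among the latter.

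Of the PGC-1 coactivators PPARGC1B fell in both fits, and PPARGC1A rose with 11 libraries. PPARGC1B was at 21.5, 20.5 and 22.2 CPM in TRB vehicle and 11.3, 6.30 and 13.0 with T3. In EV cells it was at 20.6, 21.8 and 21.5 with vehicle and 23.2, 26.2 and 30.6 with T3. TRB T3 held the 3 lowest libraries of the 12 and EV T3 the 3 highest. The gene has 55.5% GC, and with GC offsets on 11 libraries the change of PPARGC1B with T3 in EV cells was 0.13 (edgeR adjusted p 0.417). Its log2 fold change in TRB cells was -1.06 (SE 0.244, edgeR adjusted p 0.0139), and -0.78 with 11 libraries (SE 0.140, adjusted p 0.0009).

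PPARGC1A, the better known member of the pair, was scarce: 14, 46 and 29 counts in EV vehicle, 7, 17 and 5 in EV T3, 29, 24 and 25 in TRB vehicle and 53, 21 and 27 in TRB T3. In CPM these were 3.04, 3.76 and 2.67, then 1.08, 1.80 and 1.27, then 2.95, 2.07 and 2.10, then 3.98, 3.78 and 3.37. T3 libraries lay below vehicle libraries in EV cells and above them in TRB cells, without overlap. The rise in TRB cells was 0.65 with 12 libraries (edgeR adjusted p 0.105) and 0.71 with 11 (SE 0.250, adjusted p 0.0462). That call held in 3 of the 11 fits that left out a further library.

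UCP2, the uncoupling protein of the set, was at 56.6, 53.0 and 53.2 CPM in TRB vehicle and 51.6, 7.74 and 54.8 with T3. Replicate 2 alone lay apart, at 57.3% GC for this gene, and the log2 fold change went from -0.50 with 12 libraries to 0.02 with 11 (edgeR adjusted p 0.514 and 0.943).

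**Figure D4:**
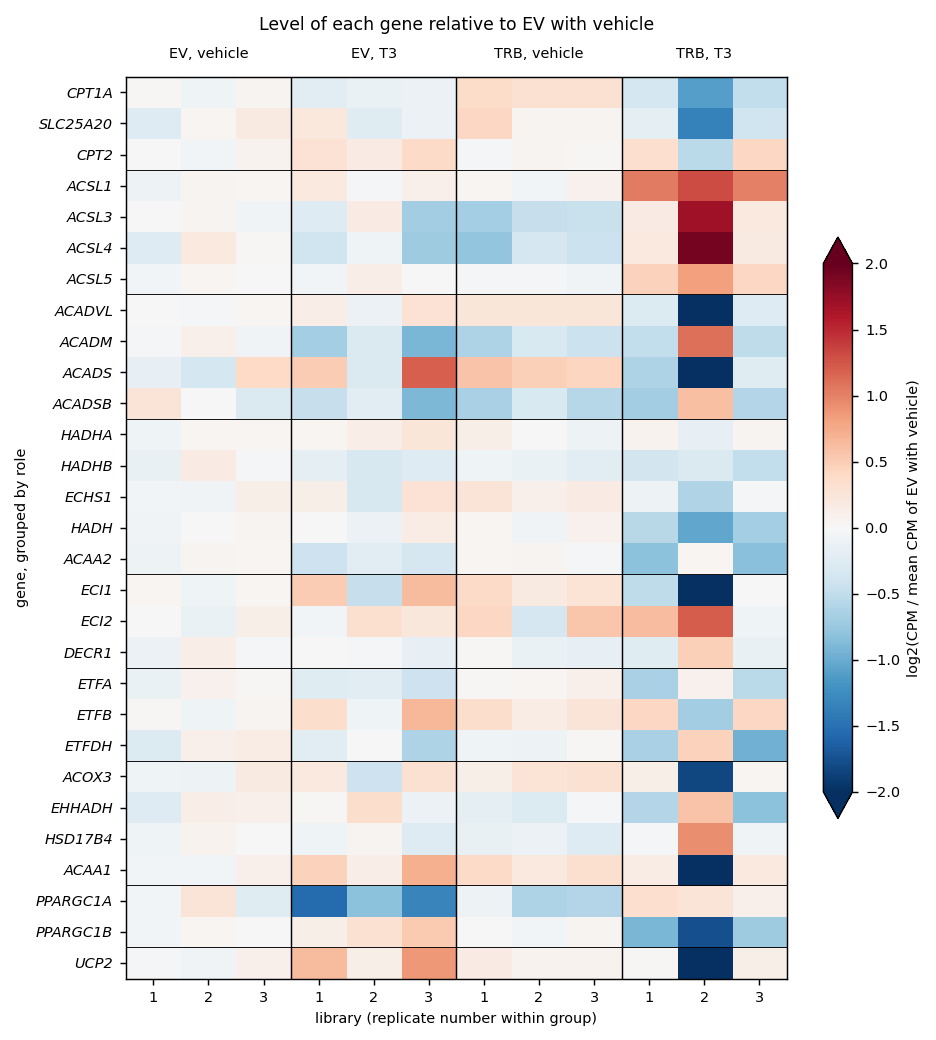
Log2 of CPM over the mean CPM of EV vehicle (colour, limited to 2 either way) for the 29 genes (rows, grouped by role) in the 12 libraries (columns, by group and replicate number). The ACSL rows are on the red side in all 3 TRB T3 libraries, while replicate 2 of that group carries the strongest colours in both directions.

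T3 without the supplied receptor called 0 of the 29 genes in edgeR with 12 libraries, where 0.229% of all genes passed (0.208% higher, 0.0208% lower); 1 of the 29 had an unadjusted p under 0.05, and DESeq2 also called 0. With 11 libraries, although the library left out belongs to neither group, UCP2 rose and ACADM and PPARGC1A fell, 3 genes against 7.33% of all (3.76% higher, 3.57% lower), and 11 had an unadjusted p under 0.05. UCP2 was at 49.3, 48.4 and 54.0 CPM in EV vehicle and 78.1, 54.7 and 92.1 with T3 (log2 fold change 0.55, SE 0.149, adjusted p 0.0442). ACADM was at 51.5, 57.3 and 50.7 CPM with vehicle and 33.3, 43.5 and 28.3 with T3 (-0.58, SE 0.153, adjusted p 0.043). In 4 of the 29 genes the T3 libraries lay above all vehicle libraries (11% of all genes) and in 6 below them (15.9%). In UCP2 and ACADM the groups did not overlap and replicate 2 with T3 was nearest to vehicle, the library whose GC trend differed from its pair. PPARGC1A changed by -1.13 (SE 0.287, adjusted p 0.0372).

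These 3 calls were lost in most fits that left out 1 more library: UCP2 passed in 1 of 11, ACADM in 2 and PPARGC1A in 2. The count was 14 without EV T3 replicate 2, 2 without TRB vehicle replicate 1 and 0 without any other library of EV cells or of TRB vehicle. The share of all genes called in these fits was not computed, so the 14 cannot be read as particular to the 29 genes. With GC offsets on 11 libraries 7 of the 29 passed, against 18.3% of all genes (7.9% higher, 10.4% lower): UCP2 (0.32, adjusted p 0.0108) and ACAA1 higher, and ACADM (-0.26, adjusted p 0.0222), PPARGC1A (-0.99, adjusted p 0.0246), CPT1A (-0.28, adjusted p 0.0095), ECHS1 and ACAA2 lower. The ACSL genes passed in none of these 3 fits.

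In hormone-free medium the receptor vector went with no passing change among the 29 genes in the edgeR fits of 12 and of 11 libraries. In edgeR 0 passed with 12 libraries (0 with an unadjusted p under 0.05), against 0.0208% of all genes, and 0 with 11 (7 unadjusted; lowest adjusted p 0.267), against 0.0742%. DESeq2 called 0 with 12 libraries and 1 with 11, and a fit of the 2 groups alone called 7. The share of all genes called in these fits was not computed, so the 7 cannot be read as particular to the 29 genes. CPT1A was higher in all 3 TRB libraries (125 to 131 CPM) than in the EV libraries (96.4 to 106), by 0.34 on the log2 scale with 11 libraries (adjusted p 0.267). It was the single gene of the 29 to pass with GC offsets on 11 (0.28, adjusted p 0.0465), where 1.2% of all genes did. In 11 of the 29 genes the groups did not overlap, 6 higher in TRB cells (15.9% of all genes) and 5 lower (20.5%).

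With T3 present, TRB cells held more ACSL1 and PPARGC1A and less HADH and PPARGC1B than EV cells, though the calls of PPARGC1A and HADH did not hold in every fit. All 4 passed in edgeR with 12 libraries, against 6.68% of all genes (4.13% higher, 2.55% lower), and 8 passed with 11, against 19.7% (11.8% higher, 7.9% lower). After GC offsets on 11 libraries 16 passed, against 40.5%. ACSL1 differed by 1.04 (SE 0.156, adjusted p 0.00288), PPARGC1A by 1.38 (SE 0.275, adjusted p 0.0139), HADH by -0.76 (SE 0.168, adjusted p 0.0227) and PPARGC1B by -1.38 (SE 0.246, adjusted p 0.00778). Over the 11 fits that left out a library other than TRB T3 replicate 2, HADH passed in 2 (adjusted p up to 0.121), PPARGC1A in 9 and the other pair in 11. Under GC offsets on 12 libraries PPARGC1A was at 1.05 and did not pass (adjusted p 0.0824), while ACSL1, HADH and PPARGC1B passed. The 4 further genes with 11 libraries were ACSL4 (0.60, adjusted p 0.0416), ACSL5 (0.46, adjusted p 0.00374), ACAA2 (-0.45, adjusted p 0.00715) and EHHADH (-0.75, adjusted p 0.00872). EHHADH was at 31.2, 39.2 and 28.3 CPM in EV T3 against 20.5 and 17.4 in TRB T3 replicates 1 and 3, with 45.5 in replicate 2. The count was 2 without EV T3 replicate 1 and 2 without replicate 3, and 0 in a fit of the 2 groups alone.

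The interaction of T3 and vector tested whether the response to hormone differed between TRB and EV cells. With 12 libraries it was positive for ACSL1 (1.02, SE 0.218, edgeR adjusted p 0.0377) and PPARGC1A (1.80, SE 0.372, adjusted p 0.0306), 2 of 29 genes against 2.59% of all (1.77% positive). ACSL1 passed in 2 and PPARGC1A in 1 of the 11 fits that left out a library other than TRB T3 replicate 2. With GC offsets on 12 libraries neither passed (0.66, adjusted p 0.111, and 1.30, adjusted p 0.132). The count was 0 without any 1 of the EV libraries with vehicle, EV T3 replicates 1 or 3 or any 1 of the TRB libraries with vehicle, and 1 without EV T3 replicate 2 or TRB T3 replicate 1. With 11 libraries 10 of 29 passed, against 15.2% of all genes (8.55% positive, 6.68% negative), and both were among them. After GC offsets on 11 libraries 16 passed, against 34.6%. More positive in TRB cells were ACSL1 (0.97, adjusted p 0.00085), ACSL3 (0.95, adjusted p 0.0264), ACSL4 (1.10, adjusted p 0.0127), ACSL5 (0.50, adjusted p 0.0194) and PPARGC1A (1.83, adjusted p 0.00699). More negative were CPT1A (-0.54, adjusted p 0.0174), ACADVL (-0.57, adjusted p 0.0191), HADH (-0.60, adjusted p 0.0172), ACAA2 (-0.49, adjusted p 0.0288) and PPARGC1B (-1.09, adjusted p 0.00209). The count fell to 2 and 3 when TRB T3 replicates 1 and 3 were left out as well, which leaves that group with 1 library assumed to vary like the others, to 6 without TRB vehicle replicate 3, and was 16 without EV T3 replicate 2. For the fits that left out a library, no share of all genes was computed beside these counts, apart from the fit of 11 libraries. The comparisons share groups, so their calls are not independent of each other.

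Of 71 further genes of fatty acid handling in 7 lists, 57 passed the count filter. T3 in TRB cells called 7 higher and 1 lower with 12 libraries and 13 higher and 7 lower with 11, against 14.7% (8.54% higher, 6.2% lower) and 33.3% (18.1% higher, 15.2% lower) of all genes. In either direction these 8 and 20 of 57 lie near the share of all genes, and the counts of single lists rest on few genes. In the list on entry and carnitine, 3 of 13 tested genes were higher and 0 lower with 12 libraries, where 8.54% and 6.2% of all genes were, and 5 higher and 2 lower with 11, where 18.1% and 15.2% were. ACSL6, the remaining long-chain synthetase of that list, had 0 counts in each TRB library with vehicle and 28, 38 and 16 with T3. It was at least 13.4-fold higher, and at least 7.56-fold without replicate 2, against a floor of 3 counts per library; the floor covers counting error only. In the same list CPT1C, a brain-type carnitine palmitoyltransferase, rose by 1.62 and FABP5, a fatty acid binding protein, fell by 1.29 on the log2 scale with 11 libraries (edgeR adjusted p 0.000276 and 0.00207), and neither passed with 12 (1.10 and -0.78, adjusted p 0.23 and 0.185). The other 2 genes called with 12 libraries, named after their values were seen, were SLC22A5, the carnitine importer (0.89, adjusted p 0.00545; 1.05 with 11, adjusted p 4.07e-05), and ACACA, which makes the CPT1 inhibitor malonyl-CoA (0.71, adjusted p 0.014; 0.89 with 11, adjusted p 3.8e-05).

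Of lipolysis, 1 of 5 tested genes was higher with 12 libraries (8.54% of all genes) and 2 with 11 (18.1% of all), and 0 were lower. MGLL, the monoacylglycerol lipase, went from 105 ± 2.66 CPM (SD, n = 3) in TRB vehicle to 523 ± 228 with T3, by 2.32 on the log2 scale (edgeR adjusted p 0.00058) and 2.69 with 11 libraries (adjusted p 7.11e-09). In EV cells it rose by 1.25 with 11 libraries (adjusted p 4.46e-05), and the interaction was 1.44 (adjusted p 0.00011), while with 12 neither passed (1.25, adjusted p 0.186, and 1.06, adjusted p 0.208). PNPLA2, the adipose triglyceride lipase, was at 101 ± 9.10 CPM with vehicle and at 250 and 300.2 with T3 outside replicate 2, where it was at 8.10 (1.5 with 11 libraries, adjusted p 0.00013; 0.89 with 12, adjusted p 0.465).

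In the list of PPAR and PGC-1 partners and targets 1 of 13 tested genes was higher and 1 lower with 12 libraries, and 3 higher and 2 lower with 11, beside 14.7% and 33.3% of all genes called in either direction. LPIN1, a phosphatidate phosphatase that also acts with PGC-1 alpha, rose in both fits, by 1.5 (edgeR adjusted p 0.000475) and 1.55 (adjusted p 1.44e-05). The gene that fell with 12 libraries, named after its value was seen, was PPARG, a nuclear receptor known from adipocytes (-0.47, adjusted p 0.0358; -0.43 with 11 libraries, adjusted p 0.00562). PPARD, a nuclear receptor for fatty acids, rose by 2.51 with 11 libraries (adjusted p 1.03e-07) and stood at 1.95 with 12 (adjusted p 0.054). PDK4, a kinase that restrains glucose oxidation, fell by 1.10 with 11 libraries (adjusted p 0.0094) and stood at -0.56 with 12 (adjusted p 0.371).

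In the peroxisomal list 1 of 11 tested genes was higher and 0 lower with 12 libraries, and 2 higher and 1 lower with 11, again beside 14.7% and 33.3% of all genes in either direction. PECR, a peroxisomal enoyl-CoA reductase, rose by 1.80 (edgeR adjusted p 0.000873) and 1.7 (adjusted p 3.46e-05). ECH1, a dienoyl-CoA isomerase, fell by 0.58 on the log2 scale with 11 libraries (adjusted p 0.00572) and stood at -1.14 with 12 (adjusted p 0.212). Of the other acyl-CoA dehydrogenases 0 of 6 passed with 12 libraries (1 unadjusted) and 1, IVD of leucine breakdown, with 11 (-0.43, adjusted p 0.0336; -0.84 with 12, adjusted p 0.132). In the ketone body list 0 of 4 passed with 12 libraries (1 unadjusted) and 1, lower, with 11 (2 unadjusted). SLC25A4, an adenine nucleotide carrier of the inner membrane, was the 1 of 5 tested uncoupling and carrier genes to pass, at 0.96 (adjusted p 0.0471) and 0.52 with 11 (adjusted p 0.00482).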

How the data were processed

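The authors deposited raw counts of reads per gene symbol for each library, and these were the values used. Per the submitters' processing notes, CASAVA 1.7, STAR 2.7, HTSeq 0.10, DESeq2 and the build hg38 were named, with no role or order; the annotation and strand setting are not given in the sources used here, so reads of overlapping genes are uncertain. Closing lines for reads of no gene entered neither library sizes nor tests; of all that a file counted, alignments without a unique place made up 19.0% to 92.0% and reads outside genes 2.14% to 24.4%. The first of these shares was higher in every EV T3 library than in any library of another group. Per the labels' protocols, RNA had an integrity number above 7.

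Counts were tested in R 4.3.3 with edgeR 4.0.16: filterByExpr (minimum count 10, minimum total 15), TMM scaling, a quasi-likelihood fit with 1 coefficient per group, 5 contrasts, two-sided, Benjamini-Hochberg adjustment over all tested genes at 0.05 (14431 genes with 12 libraries, 14825 with 11). Standard errors were derived from the fold change and its F statistic. The GC offsets remove a spline (5 degrees of freedom) of each library against transcript GC from GENCODE by symbol; exon lengths have the same source. The procedure was tested on simulated data for T3 in TRB cells, with 200 changed genes. Levels and spread came from the 11 libraries, so the GC trend of TRB T3 replicate 2 was not simulated. The biological coefficient of variation of the data was 0.131 with 11 libraries and 0.329 with 12. The simulated recovery with 12 libraries therefore does not describe the real fit of 12. The changed genes were drawn anew for each design, so the recoveries with 11 and 12 rest on different genes. Of 1.5-fold changes 13.4% were recovered with 11 libraries and 41.8% with 12, and of 2-fold changes 95.5% and 89.6%. Unchanged genes made up 11.5% of the calls with 11 libraries and 5.56% with 12. Genes described by library passed in any contrast of either fit; of each further list, up to 3 passing genes with the largest fold for T3 in TRB cells with 11 libraries were named, apart from a few that are not reported here. The genes and lists were chosen with earlier results of these data known. Alternatives were DESeq2 1.42.0, other size factors and filters, a replicate block, compared groups alone and leaving out each library; leaving out a second library was added after seeing the data.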

Additional observations from a re-analysis of the deposited data

Results flagged for a closer look

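The response to T3 differed between TRB and EV cells for 2 of the 29 genes by the interaction test with 12 libraries. The interaction was 1.02 on the log2 scale for ACSL1 (SE 0.218, edgeR adjusted p 0.0377), with higher levels in 3 of 3 TRB libraries with T3 than in any TRB library with vehicle. It was 1.80 for PPARGC1A (SE 0.372, adjusted p 0.0306), whose T3 libraries lay above vehicle in 3 of 3 TRB libraries and below vehicle in 3 of 3 EV libraries, at 5 to 53 counts per library. Over the fits that left out 1 other library, the adjusted p reached 0.126 for ACSL1 and 0.125 for PPARGC1A. With 11 libraries they were 0.00085 and 0.00699, and with the replicate block on 12 they were 0.0587 and 0.0411.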

How the results depend on the processing

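Numbers of the 29 genes that passed are given in the order T3 in TRB cells, T3 in EV cells, TRB against EV in vehicle, TRB against EV under T3, and interaction; with 12 libraries they were 7, 0, 0, 4 and 2. Leaving out 1 of the 12 libraries gave 2 to 13, 0 to 3, 0 to 0, 2 to 8 and 0 to 10, where the highest value of all but the third came without TRB T3 replicate 2. Leaving out a second library as well, an alternative chosen after seeing the data, gave 8 to 16, 0 to 14, 0 to 4, 4 to 14 and 2 to 16, and each highest value came without EV T3 replicate 2. DESeq2 gave 7, 0, 0, 7 and 6, and DESeq2 on 11 libraries 12, 6, 1, 9 and 11. The compared groups alone gave 1, 0, 7 and 0. GC offsets gave 12, 0, 0, 8 and 5, GC offsets on 11 libraries 18, 7, 1, 16 and 16, and GC offsets with the replicate block 13, 0, 0, 9 and 4. No count filter gave 5, 0, 0, 2 and 0, and at least 10 counts in every library 7, 0, 0, 4 and 1. Other size factors in edgeR gave 7, 0, 0, 5 and 2. The cause of these shifts was not tested. The share of all genes called was computed only for the fits of 12 and 11 libraries and for GC offsets on 11. The other counts have no such share beside them and are no result about the 29 genes. The biological coefficient of variation was 0.131 with 11 libraries and 0.329 with 12.

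With the replicate number as a block the counts were 7, 0, 0, 4 and 1, and on 11 libraries 15, 5, 0, 12 and 15. Correlations of same-numbered libraries' deviations ran from -0.0988 to 0.275 for replicate 1, 0.116 to 0.728 for replicate 2 and -0.190 to 0.636 for replicate 3. Replicate 2 also had the lowest correlation with GC over all genes in every group (EV vehicle -0.493, EV T3 -0.257, TRB vehicle 0.421, TRB T3 -0.851). The labels do not say what the numbers mark, and they were not taken to pair the libraries. Whether same-numbered libraries shared a batch was not tested. Single genes were followed only in contrasts where the fit of 12 or of 11 libraries had called them, over all alternatives, with those added later. Of these values, 798 kept their direction and side of the threshold, 265 passed where the 12-library value had not, and 77 no longer passed. Genes picked for passing with 11 libraries add to the 265 by that choice, so the 265 and 77 cannot be weighed against each other. Among these, the direction for T3 in TRB cells turned without TRB T3 replicate 3 in CPT2 (-0.029) and ETFDH (0.035), both with an edgeR adjusted p of 0.94. Over the fits that left out 1 or 2 libraries CPT2 ran from -0.029 to 0.451 and ETFDH from -0.858 to 0.035. Genes that were not called turned as well. From 12 to 11 libraries ACADM went from 0.68 to -0.01, ACADSB from 0.39 to -0.10 and DECR1 from 0.15 to -0.06. ETFB went from -0.12 to 0.21 and HADHA from -0.01 to 0.11, and UCP2 also changed sign. Depth limited PPARGC1A, SLC25A20 and ECI2 most, each under 10 CPM in every library.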
